A study of Mus musculus with 9 samples.

Results

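Caveolins and the proteins that shape and anchor the caveolar coat were followed through 9 whole NB9464 tumors. The set held 6 genes out of the 54429 symbols of the count table: the caveolins Cav1, Cav2 and Cav3, and the coat partners Ehd2, Pacsin2 and Pacsin3. Cav1 and Cav2 were selected on the measured rise of their counts with treatment in these same tumors, so their differences are given as a description with no test. The question put to the other 4 genes was whether they followed. All 6 passed the filter on low counts that left 15931 genes for testing.

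Caveolae are small flask-shaped pits of the plasma membrane that sense stretch, flatten under tension and carry signalling proteins. Caveolin 1 is the main structural protein in most cells, and caveolin 2 is built into the same oligomers. Caveolin 3 takes the place of caveolin 1 in striated muscle. The cavins form a coat around the caveolin bulb, the ATPase EHD2 sits at the neck and holds the pit at the membrane, and the BAR-domain proteins pacsin 2 and pacsin 3 bend the neck. Caveolae are known to be dense in endothelium, adipocytes, fibroblasts and muscle.

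The tumors were grown from cells of NB9464, a mouse neuroblastoma line driven by MYCN, implanted under the skin of wild-type C57BL/6 mice, which by the study's methods were 4 to 6 weeks old. Treatment started at a volume of 250 mm3. Vehicle tumors, tumors given R788 + anti-PDL1, and tumors given Rad + R788 + anti-PDL1 (called irradiated here) had 3 libraries each. R788 (fostamatinib) is a prodrug of a Syk kinase inhibitor, dosed at 50 mg/kg. Anti-PDL1 was the antibody clone 10F.9G2 against the checkpoint ligand PD-L1, and Rad stands for 10 Gy of radiation. The series text gives 4 doses between days 28 and 37 without saying which agents they cover, and arms with single agents were not analysed here. Whole tumors contain host cells, and every tumor came from the same line. Of the markers that define noradrenergic neuroblasts, Th had 0 counts in all 9 libraries and Dbh had 0 or 1, while Hand2 had 6545 to 12901 counts and Mycn 1265 to 6107. Total counts ran from 18276683 to 23397886 per library. Irradiated replicate 1 stood apart: its TMM scaling factor was 0.743 where the others had 0.975 to 1.12, and 18263 genes had a count in it where the others had 19732 to 22129. For the 6 genes, differences from vehicle that it moved by over 1.5 times are given with and without it. Values of the cell markers include it.

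Cav2 and Cav1 are neighbours on mouse chromosome 6 (GRCm38, the assembly of mm10). Cav2 (ENSMUSG00000000058.6) spans 17281185 to 17289115 and Cav1 (ENSMUSG00000007655.16) spans 17306335 to 17341452, both protein coding, on the plus strand and 17219 bp apart. Both lie within the span of the antisense gene Gm15581, which shares 0 exonic bases with either of them and had at most 2 counts in any library. The promoters of this pair are shown because the pair was selected on the same rise. Each sequence is the 250 bases before the start site in RefSeq (GRCm38.p6), 5′ to 3′, and capitals mark motif matches on either strand.

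Cav2, chr6:17280935-17281184, plus strand: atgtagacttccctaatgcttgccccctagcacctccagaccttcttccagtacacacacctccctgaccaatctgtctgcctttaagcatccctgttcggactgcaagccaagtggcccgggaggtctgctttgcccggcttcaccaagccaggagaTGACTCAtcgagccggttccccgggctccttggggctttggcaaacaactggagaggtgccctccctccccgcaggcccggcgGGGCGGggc
Cav1, chr6:17306085-17306334, plus strand: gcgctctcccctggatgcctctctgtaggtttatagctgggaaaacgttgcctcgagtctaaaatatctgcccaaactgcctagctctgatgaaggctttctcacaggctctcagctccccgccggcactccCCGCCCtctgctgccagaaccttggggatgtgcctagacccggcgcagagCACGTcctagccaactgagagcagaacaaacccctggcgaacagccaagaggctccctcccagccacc

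In the Cav2 promoter, the motif TGANTCA of AP-1 factors matched with its first base at -92 from the start site, and the GC box GGGCGG matched at -9. In the Cav1 promoter a GC box matched at -118 on the other strand, and the hypoxia response core (GCGTG or ACGTG) matched at -68 on the other strand. CACGTG, the E-box of MYC and MYCN, matched in neither. Among 32851 RefSeq promoter windows of this length, searched on both strands, 6.75% held the AP-1 motif, 32.7% a GC box, 38.6% the hypoxia core and 6.02% the E-box. GC made up 62.0% of the Cav2 window and 59.6% of the Cav1 window, and the median window had 52.4%. The window before a second RefSeq start of Cav1, chr6:17307390-17307639, had no match to any of the 4. RNA levels alone do not show whether a match is bound.

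Cav1 transcripts were lowest in vehicle, higher with R788 + anti-PDL1 and highest in the irradiated tumors. Counts of Cav1 were 91, 97 and 117 in vehicle replicates 1 to 3, then 373, 544 and 448 with R788 + anti-PDL1, and 419, 1327 and 1198 with radiation added. Scaled to counts per 1000000 with the TMM factors (CPM), these were 5.02, 4.36 and 6.41 CPM, then 16.4, 20.8 and 18.4 CPM, then 30.9, 67.3 and 54.7 CPM. The 3 groups did not overlap, and irradiated replicate 1 was the lowest of its group. The group means were 5.26 ± 1.05, 18.5 ± 2.18 and 51.0 ± 18.5 CPM (SD, n = 3), a 3.52-fold and a 9.68-fold difference from vehicle. On the log2 scale Cav1 was higher than vehicle by 1.82 ± 0.31 (SE) with R788 + anti-PDL1 and by 3.28 ± 0.32 in the irradiated tumors, and the treated groups differed by 1.46 ± 0.30. Without irradiated replicate 1 the last 2 values were 3.56 and 1.72. In bulk tumors, more cells of a type that carries Cav1 and more Cav1 RNA per cell cannot be told apart.

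Cav2 had the same order of groups at a lower level. It had 54, 52 and 57 counts in vehicle tumors, 217, 338 and 271 with R788 + anti-PDL1, and 251, 624 and 706 in the irradiated tumors. The corresponding levels were 2.98, 2.34 and 3.12 CPM, then 9.57, 12.9 and 11.1 CPM, then 18.5, 31.7 and 32.2 CPM. Again no group overlapped another and irradiated replicate 1 was the lowest irradiated tumor. The means were 2.81 ± 0.42, 11.2 ± 1.68 and 27.5 ± 7.76 CPM (SD, n = 3), 3.98-fold and 9.76-fold above vehicle in the treated groups. The log2 differences of Cav2 were 1.99 ± 0.29, 3.29 ± 0.30 and, between the treated groups, 1.30 ± 0.28. Over 15 alternatives, among them 6 that each left out a library, the difference of Cav1 from vehicle stayed between 1.69 and 1.98 with R788 + anti-PDL1 and between 3.02 and 3.56 in the irradiated tumors. That of Cav2 stayed between 1.87 and 2.14 and between 3.15 and 3.53. These ranges, like the SE, describe the counts on which the pair was selected. They are no independent support for its rise.

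**Figure D1:**
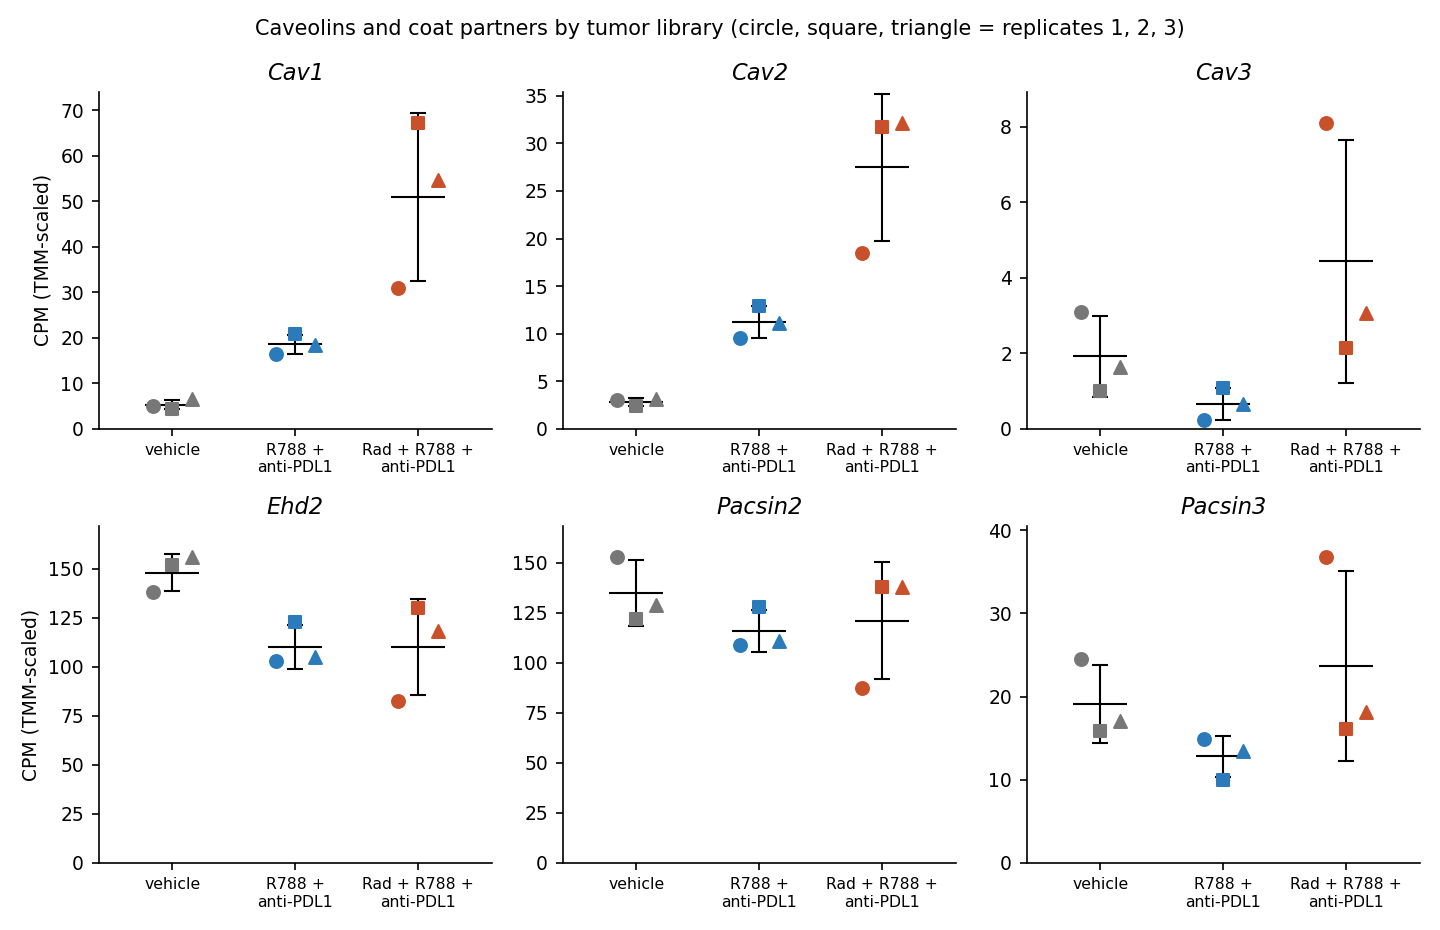
Levels of the 6 genes in CPM (linear axes from 0) for each of the 9 tumor libraries, by group, with replicates 1, 2 and 3 as circle, square and triangle, and mean ± SD (n = 3) in black. Cav1 and Cav2 form 3 separate steps, from means of 5.26 to 51.0 CPM for Cav1, whereas the Ehd2 means are 148, 110.0 and 110.0 CPM from vehicle to irradiated tumors.

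The proportion of the pair differed little between the groups. Per kb of exon, Cav2 stood at 0.557 ± 0.055 of the Cav1 level in vehicle tumors, 0.623 ± 0.0206 with R788 + anti-PDL1 and 0.571 ± 0.0741 in the irradiated tumors (SD, n = 3). The single libraries ran from 0.486 to 0.642, and the ranges of the 3 groups overlapped.

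The tested genes closest to the pair on either side were higher in the treated tumors as well. Tes, which encodes testin, a LIM-domain protein of focal adhesions, ends 175356 bp before Cav2, and Met, the receptor of hepatocyte growth factor, starts 122347 bp after Cav1. Tes had 61, 59 and 49 counts in vehicle replicates 1 to 3, 116 to 166 with R788 + anti-PDL1 and 527 to 881 in the irradiated tumors. Met had 2 to 15 counts, 57 to 174 and 295 to 658 in the same order. The differences from vehicle with R788 + anti-PDL1 on the log2 scale were 1.09 for Tes, 1.99 for Cav2, 1.82 for Cav1 and 3.63 for Met, and those in the irradiated tumors were 3.74, 3.29, 3.28 and 6.01. These 4 genes were known from earlier results of these data, so no test is attached. Within 500 kb the other tested genes were Tfec, Capza2 and St7. Tfec, a transcription factor of macrophages, changed by 0.82 (adjusted p = 0.715) and 1.17 (adjusted p = 0.436) against vehicle in edgeR, on at most 64 counts. Capza2 and St7 changed by -0.19 to 0.21 against vehicle, with adjusted p-values of 0.694 to 0.944 in edgeR. Exons of Tes share 144 bases with the antisense gene Gm4876, so reads of the 2 cannot be told apart there.

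**Figure D2:**
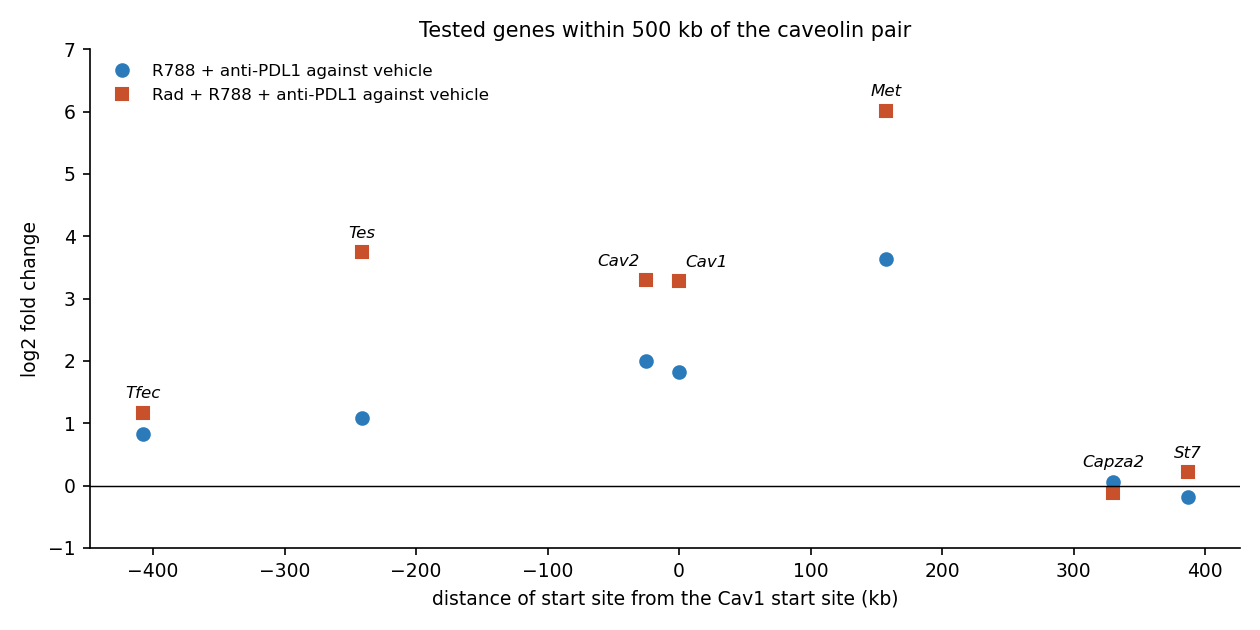
Log2 fold change against vehicle of the 7 tested genes within 500 kb of the caveolin pair, plotted by the distance of each start site from that of Cav1 in kb. Tes, Cav2, Cav1 and Met lie above 1 for both treatments, and Capza2 and St7 lie between -0.19 and 0.21.

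Among the coat partners, Ehd2 was not higher in any treated tumor. Ehd2 (ENSMUSG00000074364.6, chromosome 7, 15946958 to 15967567) had 2500, 3380 and 2839 counts in vehicle tumors, 2331, 3214 and 2554 with R788 + anti-PDL1, and 1116, 2558 and 2582 in the irradiated tumors. In CPM these were 138, 152 and 156, then 103, 123 and 105, then 82.3, 130.0 and 118. All 6 treated tumors lay under all 3 vehicle tumors, and the lowest was irradiated replicate 1. The log2 difference from vehicle was -0.43 ± 0.20 with R788 + anti-PDL1 (95% CI -0.89 to 0.02, edgeR adjusted p = 0.458) and -0.43 ± 0.20 in the irradiated tumors (95% CI -0.89 to 0.02, edgeR adjusted p = 0.386). Neither passed the threshold of an adjusted p of 0.05. Without irradiated replicate 1, the irradiated difference of Ehd2 was -0.23. The treated groups had the same mean, 110 ± 11.1 and 110 ± 24.7 CPM.

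Pacsin2, the widely expressed pacsin, had similar ranges in the 3 groups. Pacsin2 (ENSMUSG00000016664.16, chromosome 15, 83375607 to 83464606) had 153, 122 and 129 CPM in vehicle tumors, 109, 128 and 111 CPM with R788 + anti-PDL1, and 87.5, 138 and 138 CPM in the irradiated tumors. Each group overlapped the other 2. Its log2 differences were -0.22 ± 0.22 (95% CI -0.70 to 0.27, edgeR adjusted p = 0.78) and -0.15 ± 0.22 (95% CI -0.64 to 0.33, edgeR adjusted p = 0.737) against vehicle, and 0.06 ± 0.22 (95% CI -0.42 to 0.55, edgeR adjusted p = 0.888) between the treated groups. Without irradiated replicate 1, Pacsin2 differed by 0.06 in irradiated against vehicle and by 0.26 between the treated groups. The pseudogene Gm5417 lies inside Pacsin2 on the same strand, with 0 exonic bases shared.

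Pacsin3, the pacsin of muscle and lung, had its lowest libraries with R788 + anti-PDL1 and a wide spread in the irradiated tumors. Pacsin3 (ENSMUSG00000027257.13, chromosome 2, 91255954 to 91264679) had 24.5, 15.8 and 17.1 CPM in vehicle tumors, 14.9, 10.0 and 13.5 CPM with R788 + anti-PDL1, and 36.8, 16.1 and 18.1 CPM in the irradiated tumors. The R788 + anti-PDL1 tumors lay under all others, and irradiated replicate 1 was the highest of the 9. The log2 difference of Pacsin3 was -0.58 ± 0.35 with R788 + anti-PDL1 (95% CI -1.36 to 0.20, edgeR adjusted p = 0.6). It was 0.30 ± 0.35 in the irradiated tumors (95% CI -0.48 to 1.08, edgeR adjusted p = 0.675), and -0.14 without irradiated replicate 1. Between the treated groups it was 0.89 ± 0.35 (95% CI 0.10 to 1.67, edgeR adjusted p = 0.246), and 0.43 without that library. Pacsin3 shares 42 exonic bases with Gm17281 on the other strand, so a few of its reads are uncertain.

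Cav3, the caveolin of muscle, had few counts and its own pattern. Cav3 (ENSMUSG00000062694.7, chromosome 6, 112459505 to 112472872) had 56, 22 and 30 counts in vehicle tumors, 5, 28 and 16 with R788 + anti-PDL1, and 110, 42 and 67 in the irradiated tumors. These were 3.09, 0.988 and 1.64 CPM, then 0.22, 1.07 and 0.656 CPM, then 8.11, 2.13 and 3.06 CPM. The irradiated tumors lay above all R788 + anti-PDL1 tumors and overlapped the vehicle tumors. The log2 difference of Cav3 was -1.54 ± 0.73 with R788 + anti-PDL1 (95% CI -3.18 to 0.11, edgeR adjusted p = 0.471) and 1.21 ± 0.71 in the irradiated tumors (95% CI -0.38 to 2.80, edgeR adjusted p = 0.444). The latter was 0.47 without irradiated replicate 1. Between the treated groups it was 2.75 ± 0.75 (95% CI 1.06 to 4.43), which edgeR did not call (adjusted p = 0.207) and DESeq2, the tool of the study, did (2.77, adjusted p = 0.00694). Without irradiated replicate 1 that edgeR difference was 1.99 (adjusted p = 0.223). The same library had the highest sum of muscle markers. The 8 skeletal muscle markers summed to 29.8 CPM in it, against 6.60 to 10.6 CPM in the other 8 libraries, with 148 counts of Ckm against 17 to 54. Myh4 and Mb had 0 to 2 counts in every library. The part of muscle RNA in the Cav3 values was not tested.

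Across the 4 genes that were not selected for a rise, edgeR called 0 in each of the 3 comparisons. At an unadjusted p under 0.05, met by 11.7%, 13.2% and 18.4% of all genes in the 3 comparisons, there were 0 with R788 + anti-PDL1 against vehicle, 0 in irradiated against vehicle and 2 between the treated groups, Cav3 and Pacsin3. DESeq2 called 0, 0 and 1, where it called 3.88%, 3.16% and 4.21% of all genes. Limma-voom called 0, 0 and 0, where it called 0.559%, 0.0502% and 0.0502%. Over all genes edgeR called 0.678% with R788 + anti-PDL1 against vehicle, 0.0439% in irradiated against vehicle and 0.00628% between the treated groups, so a call was rare for any gene and a count of 0 of 4 says little. Leaving out a library moved the number of called genes from 108, 7 and 1 to between 0 and 856, between 1 and 57 and between 0 and 21, with each maximum reached without irradiated replicate 1. Full separation of the groups was seen at 2, 1 and 2 of the 4 genes, where 30.1%, 20.5% and 27.4% of all tested genes did not overlap. Without irradiated replicate 1, edgeR called 0 of the 4 in each comparison and 5.15%, 0.343% and 0.126% of all genes. The comparisons share samples and are not independent of each other.

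**Figure D3:**
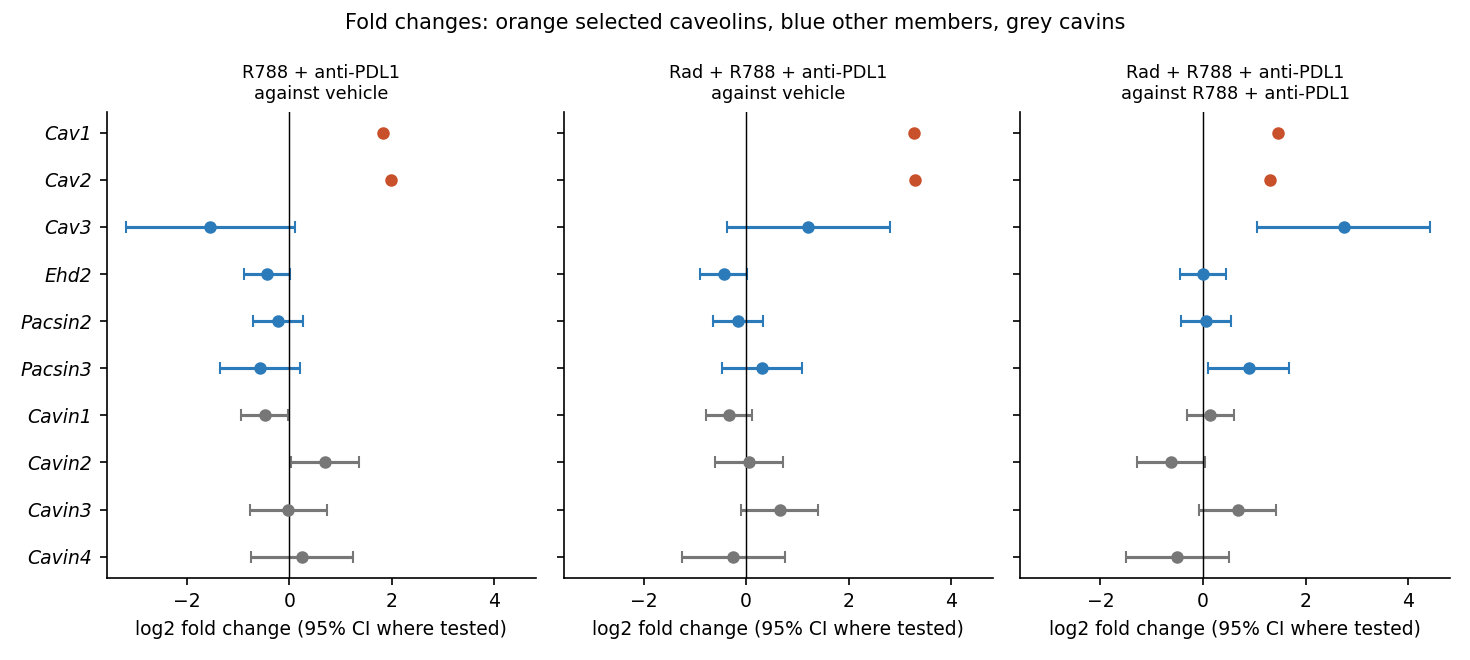
Log2 fold changes from the edgeR fit in the 3 comparisons, for Cav1 and Cav2 (orange points, selected for their rise and drawn without intervals), and with 95% confidence intervals for the other 4 genes (blue) and the 4 cavins (grey). The caveolin pair sits at 1.82 to 3.29 against vehicle, and Ehd2 and Pacsin2 sit between -0.43 and -0.15.

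The order of the genes by level per length differed between the groups. Levels here are CPM per kb of merged exon, the only scale on which genes are set against each other. In vehicle tumors Ehd2 (29.0 ± 1.81) and Pacsin2 (27.5 ± 3.37) were highest and their ranges overlapped, Pacsin3 (4.42 ± 1.09) followed, and Cav3 (1.65 ± 0.93) and Cav1 (1.53 ± 0.305), again overlapping, stood above Cav2 (0.844 ± 0.126). The single Cav2 libraries lay under those of Cav1, but overlapped those of Cav3. With R788 + anti-PDL1, Cav1 (5.38 ± 0.632) stood above Pacsin3 (2.95 ± 0.577), and Cav2 (3.36 ± 0.503) and Pacsin3 overlapped. In the irradiated tumors the order was Pacsin2 (24.7 ± 5.98), Ehd2 (21.5 ± 4.83), Cav1 (14.8 ± 5.37), Cav2 (8.24 ± 2.33), Pacsin3 (5.47 ± 2.64) and Cav3 (3.83 ± 2.78), and each gene overlapped the next.

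Set against the coat genes within each tumor, the level of Cav1 was lowest in vehicle and highest in irradiated tumors on average. Cav1 stood at 0.0527 ± 0.00938 of the Ehd2 level per length in vehicle tumors, 0.25 ± 0.0116 with R788 + anti-PDL1 and 0.673 ± 0.108 in the irradiated tumors (SD, n = 3). Against Pacsin2 it stood at 0.0561 ± 0.0128, 0.227 ± 0.011 and 0.587 ± 0.0976. Against Cavin1, the cavin needed to form caveolae, it stood at 0.0209 ± 0.00365, 0.104 ± 0.0208 and 0.275 ± 0.132. The groups did not overlap for Ehd2 or Pacsin2. For Cavin1, irradiated replicate 1 (0.123) fell inside the R788 + anti-PDL1 range of 0.085 to 0.126. These ratios do not depend on library scaling, and since Cav1 was selected for its rise they carry no test.

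**Figure D4:**
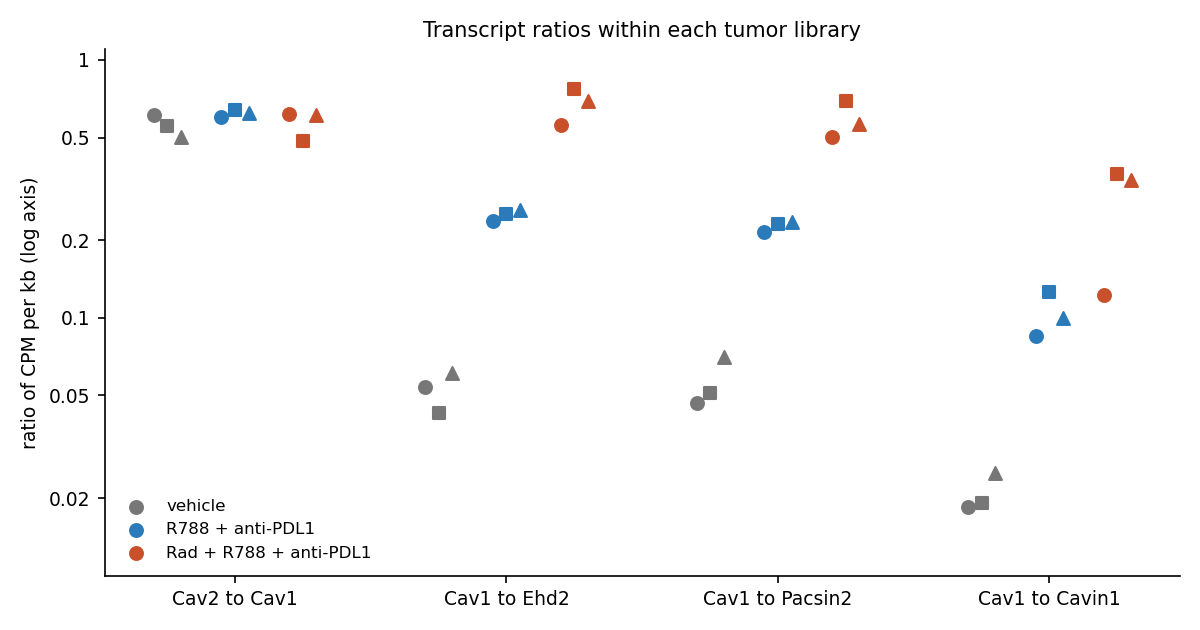
Ratios of CPM per kb within each of the 9 libraries on a log axis, by group (color) and replicate (circle, square and triangle for 1, 2 and 3). Cav2 to Cav1 stays between 0.486 and 0.642 in every library, while Cav1 to Ehd2 goes from 0.0427 to 0.0613 in vehicle tumors to 0.558 to 0.771 in irradiated tumors.

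The cavins did not pass the test in any of the 3 comparisons either, where edgeR called 0.678%, 0.0439% and 0.00628% of all genes. Cavin1 had 282, 238 and 266 CPM in vehicle tumors, 202, 171 and 192 CPM with R788 + anti-PDL1, and 262, 194 and 167 CPM in the irradiated tumors. All 3 R788 + anti-PDL1 tumors lay under the vehicle tumors, with a log2 difference of -0.48 ± 0.20 (edgeR adjusted p = 0.402), and the irradiated difference was -0.34 ± 0.20 (edgeR adjusted p = 0.456), or -0.51 (adjusted p = 0.134) without irradiated replicate 1. Cavin2, which helps to shape the membrane in endothelium, had means of 70.8 ± 28.0, 114 ± 32.0 and 74.0 ± 5.6 CPM from vehicle to irradiated tumors, and its difference with R788 + anti-PDL1 was 0.69 ± 0.29 (edgeR adjusted p = 0.4). Cavin3 had means of 40.6 ± 16.4, 40.0 ± 5.12 and 64.0 ± 24.5 CPM, with 92.3 CPM in irradiated replicate 1. Its irradiated difference was 0.66 ± 0.34 (edgeR adjusted p = 0.407), or 0.32 (adjusted p = 0.621) without that library. Cavin3 shares 374 exonic bases with Gm45667 on the other strand. Cavin4, the cavin of muscle, stayed at 0.731 to 1.37 CPM in all libraries, with 11 to 31 counts.

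The wider list of 16 caveolar companions held the cavins, Ehd1, Ehd3, Ehd4, Pacsin1, the flotillins Flot1 and Flot2, the scission GTPase Dnm2, the actin crosslinker Flna that links caveolae to stress fibres, and Nostrin, Ror1, Nos3 and Cd36, whose proteins act at or bind to caveolae. Pacsin1, the neuronal pacsin, had 1 to 13 counts and was not tested. Of the 15 tested, edgeR called 0 in each comparison, with 4, 2 and 5 at an unadjusted p under 0.05, where 11.7%, 13.2% and 18.4% of all genes stood. DESeq2 called 1, 2 and 1, beside 3.88%, 3.16% and 4.21% of all genes, and limma-voom 0, 0 and 0. With R788 + anti-PDL1 against vehicle 8 were higher and 7 lower, with a median log2 difference of 0.09 where all genes had -0.02. In irradiated against vehicle 10 were higher and 5 lower, with a median of 0.08 where all genes had 0.05. Between the treated groups 7 were higher and 8 lower, with a median of -0.01 where all genes had 0.04. Full separation of the groups was seen at 5, 3 and 8 of the 15, beside 30.1%, 20.5% and 27.4% of all genes.

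The companions that DESeq2 called are named here after their values were seen. Ror1, a receptor of Wnt5a that holds caveolin 1 and cavin 1 together, had 6.35, 6.42 and 5.65 CPM in vehicle tumors, 19.3, 24.5 and 20.0 CPM with R788 + anti-PDL1 and 4.57, 12.4 and 12.7 CPM in the irradiated tumors. It was highest with R788 + anti-PDL1, and its difference from vehicle was 1.79 ± 0.37 (edgeR adjusted p = 0.0761, DESeq2 adjusted p = 0.00018). Without irradiated replicate 1, edgeR called Ror1 (1.81, adjusted p = 0.00378). Cd36, a fatty acid transporter found in caveolae, had 16.3 to 32.6 CPM in vehicle tumors, 28.0 to 34.4 CPM with R788 + anti-PDL1 and 3.61 to 12.0 CPM in the irradiated tumors. The irradiated tumors lay under all others, by -1.59 ± 0.41 against vehicle (edgeR adjusted p = 0.221, DESeq2 adjusted p = 0.013) and by -2.03 ± 0.42 against R788 + anti-PDL1 (edgeR adjusted p = 0.139, DESeq2 adjusted p = 0.000343). Without irradiated replicate 1 the edgeR values of Cd36 were -1.23 (adjusted p = 0.143) and -1.69 (adjusted p = 0.0884). Nostrin, which traffics endothelial nitric oxide synthase, had 3.09 to 3.68 CPM in vehicle tumors and 6.67 to 10.5 CPM in the irradiated tumors, a difference of 1.29 ± 0.37 (edgeR adjusted p = 0.256, DESeq2 adjusted p = 0.0257), and of 1.33 (edgeR adjusted p = 0.168) without irradiated replicate 1.

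Genes were ranked by how closely their log2 CPM tracked each caveolin over the 9 libraries, which share 3 groups, so the correlations carry no p-value. For Cav1 the closest was Cav2 (Pearson r = 0.995), then Dio2 (0.971), which encodes the deiodinase that activates thyroid hormone, Ankrd35 (0.96), Met (0.949) and Traf1 (0.943), an adaptor of TNF receptors. For Cav2 they were Cav1, Ankrd35 (0.972), Dio2 (0.968), the desmosomal protein gene Pkp2 (0.952) and Nat8 (0.948). In vehicle replicates 1 to 3, Nat8 had 3, 0 and 0 counts and Met 2, 8 and 15. Both genes passed the low-count filter only through the treated groups, so their r is a description only. Tes ranked 26 of 15930 for Cav1. In that order Cav3 was 4509 (r = 0.236), and the coat partners Pacsin3, Pacsin2 and Ehd2 were 7997 (-0.003), 10135 (-0.153) and 14696 (-0.54). The cavins were spread out, with Cavin3 at 2197 (0.452), Cavin2 at 4910 (0.207), Cavin4 at 12460 (-0.322) and Cavin1 at 15404 (-0.666).

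Markers of cells known to be rich in caveolae, and of other cells, were read beside the caveolins. The 10 endothelial markers summed to 83.7 to 85.4 CPM in vehicle tumors. They summed to 79.8, 201 and 114 CPM in R788 + anti-PDL1 replicates 1 to 3, and to 171, 108 and 114 CPM in irradiated replicates 1 to 3. All 10 markers were higher with R788 + anti-PDL1 and 9 of 10 in the irradiated tumors, with median log2 differences of 0.74 and 0.51. In edgeR 0 were called, and 4 and 3 had an unadjusted p under 0.05, as did 11.7% and 13.2% of all genes. The 8 fibroblast markers summed to 3020 to 3750 CPM, 2920 to 5390 CPM and 2530 to 4940 CPM in the 3 groups. The 5390 CPM came from R788 + anti-PDL1 replicate 2, and replicates 1 and 3 of that group had 2920 and 3420 CPM. Col1a1 and Col3a1 were the highest of the 8 markers, with vehicle means of 2140 and 1020 CPM. Against vehicle, 6 fibroblast markers were higher and 2 lower in both treated groups, with medians of 0.42 and 0.32. At an unadjusted p under 0.05 in edgeR there were 3 and 2. Markers of smooth muscle and pericytes summed to 244 to 254 CPM, 184 to 329 CPM and 234 to 299 CPM. The 329 CPM came from R788 + anti-PDL1 replicate 2, and replicates 1 and 3 of that group had 184 and 203 CPM. Of these markers, 6 were higher and 2 lower with R788 + anti-PDL1, and 4 higher and 4 lower in the irradiated tumors. In both lists edgeR called 0. Of the 8 adipocyte markers, Adipoq had 0 to 3 counts and Lep 0 or 1, and the only tested marker was Fabp4, which macrophages also carry, with 200 to 948 counts. The 11 genes of mesenchymal-type neuroblastoma cells summed to 1710 to 2280 CPM, 2230 to 2360 CPM and 2410 to 2670 CPM, with 0 called. Against vehicle, 3 and 4 of them had an unadjusted p under 0.05 in edgeR. Full separation was seen at 3 higher and 1 lower with R788 + anti-PDL1, and 4 higher and 1 lower in the irradiated tumors. Of all genes, 30.1% and 20.5% did not overlap. Fn1 and Vim were the highest of the list, and Vim went from 362 to 1070 CPM. Of the 11 genes, 6 were higher and 5 lower with R788 + anti-PDL1, and 5 higher and 6 lower in the irradiated tumors. The median log2 differences were 0.01 and -0.04. The irradiated differences ran from -1.70 for Prrx1 to 1.56 for Vim. Macrophage markers summed to 291 to 612 CPM, 627 to 647 CPM and 318 to 1680 CPM. The 1680 CPM came from irradiated replicate 3 alone, and irradiated replicates 1 and 2 had 492 and 318 CPM. Against vehicle, 7 macrophage markers were higher and 1 lower in both treated groups, with median log2 differences of 0.58 and 1.06. At an unadjusted p under 0.05 in edgeR there were 0 and 2. Keratinocyte markers summed to 17.6 to 18.7 CPM, 8.42 to 72.8 CPM and 57.8 to 104 CPM. Of the 5 tested, 3 were higher and 2 lower than vehicle in both treated groups, with medians of 0.28 and 0.72. Krt5 had 136, 68 and 85 counts in vehicle replicates 1 to 3. It had 43, 1652 and 554 with R788 + anti-PDL1 and 1017, 1066 and 1019 in the irradiated tumors. Its log2 differences from vehicle were 2.53 (edgeR adjusted p = 0.308) and 3.53 (edgeR adjusted p = 0.222). Krt14 and Krt1 had at most 43 and 1 counts. Of all genes, edgeR called 0.678%, 0.0439% and 0.00628% in the 3 comparisons. Of all tested markers in these lists, edgeR called 1, Isl1 of the neuroblast list, with 48 to 80 counts with R788 + anti-PDL1. It had 0 counts in every vehicle library and so passed the filter only through the treated groups. The part of any of these cell types in the rise of Cav1 and Cav2 was not tested.

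The promoters of the other members were searched with the same motifs. In all, 10 RefSeq windows covered the 6 genes. The AP-1 motif also matched in a second window of Pacsin2 at -152, a GC box matched in windows of Ehd2, Pacsin2 and Pacsin3, and the hypoxia core in windows of Ehd2 and Pacsin2. The Cav3 window held none of the 4 motifs, and the E-box matched in none of the 10 windows.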

How the data were processed

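RNA was extracted from 9 whole tumors, and poly(A) libraries were sequenced. Reads were mapped by the authors to mm10 with STAR 2.6.1d and quantified with Salmon 1.4.0 in a bcbio pipeline. The labels also list Picard 2.26, SAMtools 1.9 and MultiQC 1.11. The table the authors deposited gives Salmon estimated counts by gene symbol, in whole numbers and not normalized. Columns of 0 samples stayed unmapped. The sources disagree on whether the run was paired-end or single-read, the extraction text of the labels names macrophages although the tissue is whole tumor, and strandedness is not given in the sources used here. Groups came from the treatment labels. No source says that libraries of a group came from separate mice, so p-values measure the spread between these samples.

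Genes passing filterByExpr (minimum count 10) in edgeR 4.0.16 (R 4.3.3) were fitted over all 9 libraries with a coefficient per group, TMM factors and the robust quasi-likelihood F test (two-sided), and p-values were adjusted by Benjamini-Hochberg over all 15931 genes at 0.05. The fit was tested on simulated data with larger changes than those of Ehd2, Pacsin2 and Pacsin3. That simulation does not show how often changes of their size would be called. DESeq2 1.42.0, limma-voom (limma 3.58.1) and other normalizations, filters and sample sets were alternatives. CPM use TMM factors, and 3 counts correspond to 0.115 to 0.221 CPM, a floor for counting error alone, because PCR copies were not marked by molecular identifiers. For correlations log2 CPM had a prior count of 2. Identifiers and exon lengths came from GENCODE M21, which matched 98.8% of symbols.

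The members and lists were chosen with earlier results of these data known. The text names the 6 members, the 4 cavins, called companions, Tes and Met, and the 5 tested genes most correlated with Cav1 or Cav2, skipping predicted genes and Rik clones.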

Additional observations from a re-analysis of the deposited data

How the results depend on the processing

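Over 15 alternatives in each comparison, edgeR, limma-voom and every normalization, filter and left-out library called 0 of the 4 unselected members. That count could hardly move, since 6 of 18 settings with R788 + anti-PDL1 against vehicle, and 9 of 18 between the treated groups, called 0 of all genes tested. DESeq2 called 1 between the treated groups, Cav3 (2.77, adjusted p = 0.00694), and 0 in the others. The other alternatives gave Cav3 an adjusted p of 0.139 to 0.528 there. A filter of at least 10 counts in every library removed Cav3 and gave no value for it. The total counts without a factor moved the median of all genes from -0.02, 0.05 and 0.04 to 0.13, 0 and -0.14 in the 3 comparisons, and upper-quartile scaling moved the irradiated one to 0.11 against vehicle.

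Signs turned for Pacsin2, Pacsin3 and Ehd2, in differences that were not called. Between the treated groups, Pacsin2 was -0.09 with total counts and Ehd2 was 0.01 with only the 6 libraries compared. With each library left out in turn, Pacsin2 ranged from -0.26 to 0.06 and Pacsin3 from -0.14 to 0.53 in irradiated against vehicle, where irradiated replicate 1 turned both. Between the treated groups Pacsin2 ranged from -0.04 to 0.26 and Ehd2 from -0.14 to 0.18. The cause was not tested. The count of companions, an alternative added after seeing the data, was 1 with R788 + anti-PDL1 against vehicle under DESeq2, without a low-count filter, with only the 6 libraries compared, and without irradiated replicate 1 (Ror1 each time). Under DESeq2 it was 2 in irradiated against vehicle and 1 between the treated groups.

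Deviations of same-numbered libraries had a Pearson r across genes of -0.05 to 0.06 with R788 + anti-PDL1 against vehicle and between the treated groups. In irradiated against vehicle, r was 0.23, 0.19 and 0.05 for replicates 1 to 3, and -0.23 to 0.12 for unlike numbers. There replicates 1 and 2 leaned together weakly, but irradiated replicate 3 correlated better with vehicle replicate 2 (0.12) than with its own number. No label gives a pairing, so the numbers were not taken as pairs. A replicate block left 0 of the 4 members called in each comparison and 0, 3 and 0 of all genes called, against 108, 7 and 1 without it. DESeq2 called 720, 554 and 653 of all genes. With 5 to 110 counts in a library, Cav3 is the member whose depth limits it most.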
